A study of Homo sapiens with 6 samples.

Results

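AP-1 is a family of transcription factors that bind DNA as pairs of basic leucine zipper (bZIP) proteins, and 10 of its genes were followed here by symbol: the Fos genes FOS, FOSB, FOSL1 and FOSL2, the Jun genes JUN, JUNB and JUND, and ATF3, BATF3 and MAFF. All 10 had a row among the 58302 genes of the table, and 9 of them, all but BATF3, were among the 15620 genes whose mean over the libraries reached 0.5 FPKM (fragments scaled to transcript length and library depth). The samples were 3 libraries of MHCC97H, a human hepatocellular carcinoma line, carrying a non-target CRISPR/Cas9 control, and 3 of MHCC97H made with the same system to disrupt DDX17, the gene of an RNA helicase, labelled DDX17_KO and called the knockout below. Both lines were grown in serum-containing medium, and whether the knockout line is 1 clone is not given in the sources used here. No label says that libraries of a group came from separate cultures, so the p-values set differences against a library-to-library spread that may be technical only.

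Fos proteins do not pair with each other and bind DNA as partners of a Jun protein, whereas Jun proteins can also pair among themselves. FOS, FOSB, JUN, JUNB and ATF3 belong to the immediate early genes, which growth factors and stress switch on through the ERK, JNK and p38 kinases and whose mRNAs are short-lived. Growth factor signals reach the FOS promoter through serum response factor (SRF) and its ternary complex partners, and cAMP and calcium signals through CREB-type proteins bound at the cAMP response element (CRE), TGACGTCA. AP-1 is known for its part in proliferation, matrix breakdown and migration, and in liver the Jun genes are known for their part in regeneration and tumour formation.

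RefSeq promoters, from 250 bases before to 50 bases after the gene start on GRCh38.p14, were at hand for 8 of the 10 genes, with 10 promoters in all; FOSL1 and BATF3 had no entry. The stretches below, 30 bases each and read 5′ to 3′ on the strand of the gene, are shown because letters of the CRE type recur near the starts of these genes. Capitals mark the match.
FOS: gtggttgagcccgTGACGtttacactcatt
FOSB: agcaaggggcgggTGACGtaagcagggggg
FOSL2: tggagtctggggtTGACGtgagtgaatcca
JUNB: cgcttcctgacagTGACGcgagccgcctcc
JUN: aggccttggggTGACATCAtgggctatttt
ATF3: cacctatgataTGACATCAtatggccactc
JUND: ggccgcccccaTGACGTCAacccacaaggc
MAFF: ggccgggtcggTGACGTCAccgcatgactg

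The FOS stretch lies at chr14:75278751-75278780 and the FOSB stretch at chr19:45467923-45467952, both on the plus strand, with the match beginning 64 and 60 bases before the start. FOS and FOSB thus share a CRE half-site TGACG at nearly the same distance, and both also have TATAAA on the gene's strand, 33 and 30 bases before the start. JUNB has TATAAA 31 bases before its start, with TGACG farther up, at 137 bases (chr19:12791336-12791365, plus). The JUN stretch, with TGACATCA 67 bases before the start, lies at chr1:58784096-58784125 on the minus strand. The ATF3 stretch lies at chr1:212565273-212565302 (plus), with the same letters 123 bases before the start of its upstream promoter. The FOSL2 stretch is at chr2:28392779-28392808 (plus), with the match 66 bases before the start. The full palindrome TGACGTCA was found 200 bases before the start of JUND (chr19:18281804-18281833, minus) and 54 bases before that of 1 MAFF promoter (chr22:38201929-38201958, plus).

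Both strands were searched for the CRE and AP-1 letters that follow. TGACG was in 7 of the 10 member promoters, each of another gene, and in 24.6% of all 35116 RefSeq promoters of this length. TGACNTCA, which includes the full palindrome, was in 4 of the 10 and in 7.72% of all. TGACGTCA, which contains TGACG, was in 2 of the 10 and in 1.85% of all. The AP-1 site TGANTCA was in 1 of the 10, that of FOSL2, and in 7.71% of all promoters. TATAAA, searched on the gene's strand, was in 4 of the 10 and in 7.33% of all promoters. The CArG box, the core of the serum response element, was in 0 of the 10 member promoters and in 1.29% of all, which says only that these letters are not in this window. A match is a description of letters and was not tested for binding.

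DDX17 itself, the check of the labels, measured 45.7, 41.4 and 43.9 FPKM in control replicates 1, 2 and 3, against 22.4, 7.64 and 19.1 FPKM in knockout replicates 1, 2 and 3. The libraries held from 5348000 to 14550000 fragments, estimated from the steps between low values, and the shallowest was knockout replicate 2. That library and control replicate 2 deviated from their group means in like genes, with a correlation of 0.546 across genes, which are not independent replicates. Liver identity was weak in these cells: all 18 hepatocyte markers, ALB and APOA1 among them, were below 1 FPKM in every library, with sums from 0.974 to 1.34 FPKM in controls against from 0.0372 to 0.0853 FPKM in the knockout. Red cell markers summed to 54.6 to 69.9 FPKM in controls, nearly all from HBB, HBA1 and HBA2, and to 0.0211 to 0.673 FPKM in the knockout libraries; whether this difference bears on the AP-1 genes was not tested. Leukocyte markers summed to 2.07 to 2.69 FPKM in controls against 2.33 to 3.70 FPKM in the knockout, with CD3E, CD3D and S100A8 at 0 throughout. Fibroblast and endothelial markers summed to 40.9 to 49.1 FPKM in controls against 50.7 to 92.2 FPKM in the knockout. COL1A1, COL3A1 and LUM were the genes that reached 5 FPKM in any library, and they differed in direction. COL1A1 had 12.4, 15.7 and 12.7 FPKM in controls against 7.04, 11.5 and 6.11 FPKM in the knockout, all below every control. COL3A1 had 20.7, 25.6 and 20.5 FPKM against 79.8, 27.2 and 33.5 FPKM, all above every control. LUM had 3.74, 3.20 and 4.09 FPKM against 1.20, 7.60 and 15.2 FPKM, with overlapping groups.

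The AP-1 genes split the knockout libraries. In knockout replicates 1 and 3, FOS, FOSB and ATF3 lay 9.84-fold or more below the control mean and the Jun genes 1.94-fold to 4.44-fold below it, while in knockout replicate 2 these genes stood at 77.8% to 153% of the control mean. With all 6 libraries, limma called 0 of the 9 tested members at an adjusted p of 0.05, where 0.0384% of all tested genes were called lower and 0.0% higher. DDX17 itself was not called in that fit either, with a log2 fold change of -1.48 and an adjusted p of 0.282 by limma. At an unadjusted p under 0.05, 5 of the 9 (FOSB, JUN, JUNB, JUND and MAFF) were lower and 0 higher, against 7.19% and 6.31% of all tested genes, and 8 of the 9 with the replicate number as a block, where 13.4% of all were. The median log2 fold change of the 9 was -1.01, beside -0.03 over all genes tested.

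FOS, the founding member, whose mRNA is induced within minutes of a stimulus, had 23.4, 29.2 and 29.3 FPKM in control replicates 1, 2 and 3, against 1.47, 41.7 and 0.683 FPKM in knockout replicates 1, 2 and 3. The groups overlapped: replicates 1 and 3 of the knockout lay far below every control and replicate 2 above every control. Knockout replicates 1 and 3 held 5.38% and 2.50% of the control mean, 18.6-fold and 40.0-fold less, and replicate 2 held 153%. These values rest on about 51 and 18 fragments in knockout replicates 1 and 3 and about 722 in replicate 2, against 936 to 1380 in controls. The log2 fold change over all libraries, on the log2(FPKM + 1) scale, was -2.33 (standard error 1.08; 95% confidence interval -4.84 to 0.19) and limma gave an adjusted p of 0.373. Without knockout replicate 3 the log2 fold change was -1.46. The two-sided exact permutation p was 0.4.

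FOSB, which encodes a close relative of FOS and is induced with it, had 6.69, 6.48 and 7.5 FPKM in control replicates 1, 2 and 3, against 0.103, 5.58 and 0.0221 FPKM in knockout replicates 1, 2 and 3. All 3 knockout libraries lay below every control, replicate 2 by a small margin and the other two by a wide one. Replicate 1 stood at 1.49% of the control mean, from about 6 fragments. Replicate 3 stood at 0.321%, from about 1 fragment, for which an exact Poisson interval runs from 0.00807% to 1.78% of the control mean and covers counting error only. Replicate 2 stood at 81.0%. The log2 fold change was -2.01 (standard error 0.65), for which limma gave an adjusted p of 0.352, and the exact permutation p was 0.1, the smallest that 3 against 3 libraries allow. With pseudocounts of 0.1 and 0.01 in place of 1 it was -3.75 and -4.66, past FOS at -2.87 and -2.96, so the order of the pair depends on the pseudocount. The FOSB locus overlaps ERCC1 on the opposite strand, and a strand-specific assignment of fragments is not given in the sources used here.

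FOSL1, the gene of Fra-1, had 3.75, 3.92 and 3.12 FPKM in controls against 1.24, 4.50 and 2.20 FPKM in the knockout, each in replicate order. As with FOS, knockout replicate 2 was above every control and the other knockout libraries below. The log2 fold change was -0.43 (standard error 0.32) with a limma-derived adjusted p of 0.504, and without knockout replicate 1 it was -0.13. FOSL2, the gene of Fra-2, had 31.0, 41.8 and 37.0 FPKM in control replicates 1, 2 and 3, against 26.2, 34.8 and 25.8 FPKM in the knockout. With all 6 libraries as deposited, FOSL2 had the smallest log2 fold change of the 9 tested genes, -0.33 (standard error 0.21), for which limma gave an adjusted p of 0.452. Its knockout replicate 2 lay within the control range. The order of FOSL1 and FOSL2 depended on the processing. With a correction for transcript GC content and length they had -0.11 and -0.22, and without knockout replicate 1 they had -0.13 and -0.27. Fra-1 and Fra-2 lack the strong activation domain of Fos, and they were the Fos family genes that stayed closest to the control level in knockout replicates 1 and 3, at 34.5% and 61.2% of the control mean for FOSL1 and 71.6% and 70.5% for FOSL2.

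JUN, the gene of the strongest transactivator among the Jun proteins, had 12.9, 15.4 and 12.5 FPKM in control replicates 1, 2 and 3, against 5.32, 11.1 and 3.06 FPKM in the knockout. The groups did not overlap, and replicate 2 was again the highest of the knockout libraries. The log2 fold change was -1.10 (95% confidence interval -1.97 to -0.24), with an adjusted p of 0.354 by limma and an exact permutation p of 0.1. JUNB, often a weaker activator and a brake on JUN, had 65.0, 87.1 and 73.6 FPKM in controls against 38.8, 61.0 and 22.2 FPKM in the knockout. Its highest knockout library lay just under its lowest control, and the log2 fold change was -0.97 (95% confidence interval -1.79 to -0.16), with an adjusted p of 0.366 by limma and an exact permutation p of 0.1; without knockout replicate 3 it was -0.61.

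JUND, the most steadily expressed Jun gene in many cell types, had 26.2, 33.9 and 28 FPKM in control replicates 1, 2 and 3, against 13.1, 22.9 and 8.97 FPKM in the knockout. The groups did not overlap, with a log2 fold change of -1.01 from -1.76 to -0.27 (95% confidence interval), a limma-derived adjusted p of 0.347 and an exact permutation p of 0.1. The order of the knockout libraries was the same in JUN, JUNB and JUND, with replicate 3 the lowest, replicate 1 between and replicate 2 the highest. JUN and JUND have no overlapping gene in the annotation, and JUNB overlaps HOOK2 on the opposite strand.

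ATF3, a stress-induced bZIP gene whose protein pairs with Jun proteins and often represses, had 4.39, 9.13 and 8.23 FPKM in control replicates 1, 2 and 3, against 0.737, 8.95 and 0.715 FPKM in the knockout. Knockout replicates 1 and 3 agreed closely, at 10.2% and 9.86% of the control mean, and replicate 2 lay within the control range at 123% of the mean. The log2 fold change was -1.36 (standard error 0.66), with an adjusted p of 0.383 by limma and an exact permutation p of 0.3. MAFF, a small Maf gene whose protein has no activation domain, had 2.15, 3.00 and 2.15 FPKM in controls against 0.677, 1.56 and 0.969 FPKM in the knockout. The groups of MAFF did not overlap, with a log2 fold change of -0.74 from -1.24 to -0.25 (95% confidence interval), a limma-derived adjusted p of 0.318 and an exact permutation p of 0.1; with pseudocounts of 0.1 and 0.01 it was -1.17 and -1.24. MAFF overlaps PLA2G6 on the opposite strand, and FOSL2 overlaps the antisense gene FLJ31356.

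BATF3, a bZIP gene best known from dendritic cells, was near the limit of what these libraries could measure, with 0.518, 0.740 and 0.244 FPKM in control replicates 1, 2 and 3, against 0.134, 0 and 0.735 FPKM in the knockout. It was the exception among the 10 genes, with knockout replicate 3 the highest and replicate 2 at 0. At the depth of knockout replicate 2, a count of 0 allows up to 0.207 FPKM, a limit that covers counting error only. No control held more than about 28 fragments of BATF3, the groups overlapped, and the exact permutation p was 0.4.

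**Figure D1:**
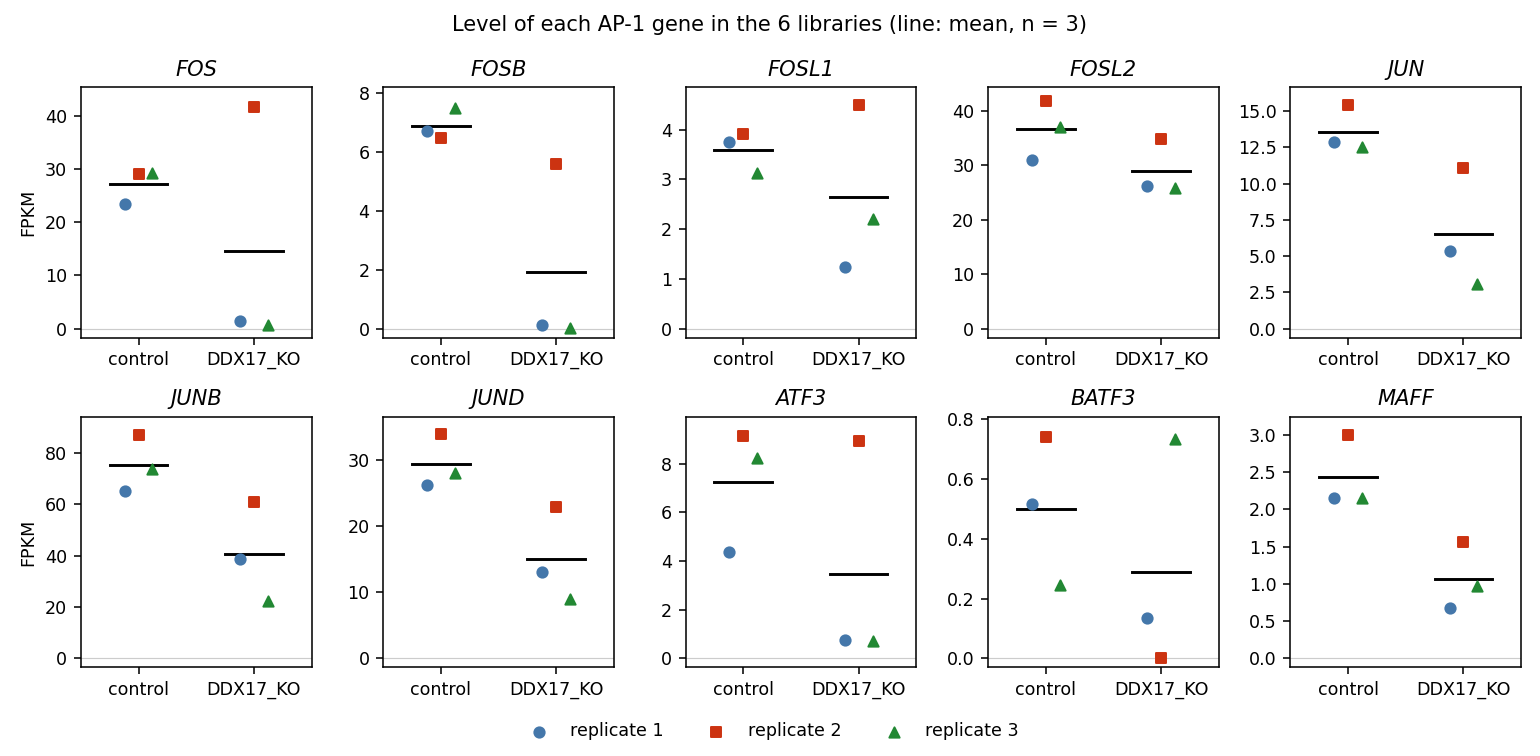
Level in FPKM of each of the 10 AP-1 genes in every library (points; blue circle replicate 1, red square replicate 2, green triangle replicate 3) with the group mean as a line, for control on the left and DDX17_KO on the right of each panel. Knockout replicate 2 is the highest knockout library in every gene but BATF3, at 41.7 FPKM against 1.47 and 0.683 FPKM in FOS.

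The 10 genes spanned a wide range of levels in control cells. FPKM is per length but is not corrected for GC content, so the order of the genes is approximate. JUNB was the most abundant at 75.3 ± 11.1 FPKM, followed by FOSL2 at 36.6 ± 5.4, JUND at 29.4 ± 4.02, FOS at 27.3 ± 3.34, JUN at 13.6 ± 1.54, ATF3 at 7.25 ± 2.52, FOSB at 6.89 ± 0.539, FOSL1 at 3.60 ± 0.421, MAFF at 2.43 ± 0.490 and BATF3 at 0.501 ± 0.249 FPKM (SD, n = 3 each). Neighbours in that order whose control libraries overlapped were FOSL2 and JUND, JUND and FOS, and ATF3 and FOSB. In the knockout the means were 40.7 ± 19.5 FPKM for JUNB, 28.9 ± 5.09 for FOSL2, 15 ± 7.13 for JUND, 14.6 ± 23.5 for FOS and 6.49 ± 4.14 for JUN (SD, n = 3 each). They were 3.47 ± 4.75 FPKM for ATF3, 2.65 ± 1.67 for FOSL1, 1.90 ± 3.19 for FOSB, 1.07 ± 0.452 for MAFF and 0.289 ± 0.391 for BATF3 (SD, n = 3 each). There, every pair of neighbours overlapped except FOSL2 and JUND, and FOS alone ranged from 0.683 to 41.7 FPKM.

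The make-up of the Fos family differed between knockout libraries, and that of the Jun family hardly did. FOS supplied 36.1%, 35.9% and 38.1% of the summed FPKM of the 4 Fos genes in control replicates 1, 2 and 3, and 5.06%, 48.2% and 2.38% in knockout replicates 1, 2 and 3. FOSL2 supplied 47.8% to 51.4% in controls and 90.3%, 40.2% and 89.9% in the knockout, so that the Fos transcripts of replicates 1 and 3 were nearly all FOSL2. The summed level of the family was 64.9, 81.4 and 76.9 FPKM in controls against 29, 86.6 and 28.7 FPKM in the knockout, with overlapping groups and an exact permutation p of 0.4.

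The 3 Jun genes summed to 104, 136 and 114 FPKM in control replicates 1, 2 and 3, against 57.3, 94.9 and 34.2 FPKM in the knockout, groups that did not overlap, with an exact permutation p of 0.1. JUNB supplied 62.4% to 64.5% of the Jun sum in controls and 67.8%, 64.2% and 64.8% in knockout replicates 1, 2 and 3 (exact permutation p = 0.2). JUND supplied 24.6% to 25.2% in controls and 22.9%, 24.1% and 26.2% in the knockout, and JUN 11% to 12.4% in controls and 9.29%, 11.7% and 8.96% in the knockout. In FPKM as deposited, the Jun genes were thus lower by similar factors within each knockout library, and FOS and FOSB by larger factors than FOSL1 and FOSL2 in replicates 1 and 3. With a correction for transcript GC content and length, given below, the Jun genes were less alike in knockout replicate 1. There JUN, JUNB and JUND lay -0.83, -0.43 and -0.60 from the control mean on the log2(FPKM + 1) scale. They lay -0.20, -0.25 and -0.27 from it in replicate 2 and -1.45, -1.18 and -1.07 in replicate 3. The difference between genes was not tested.

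**Figure D2:**
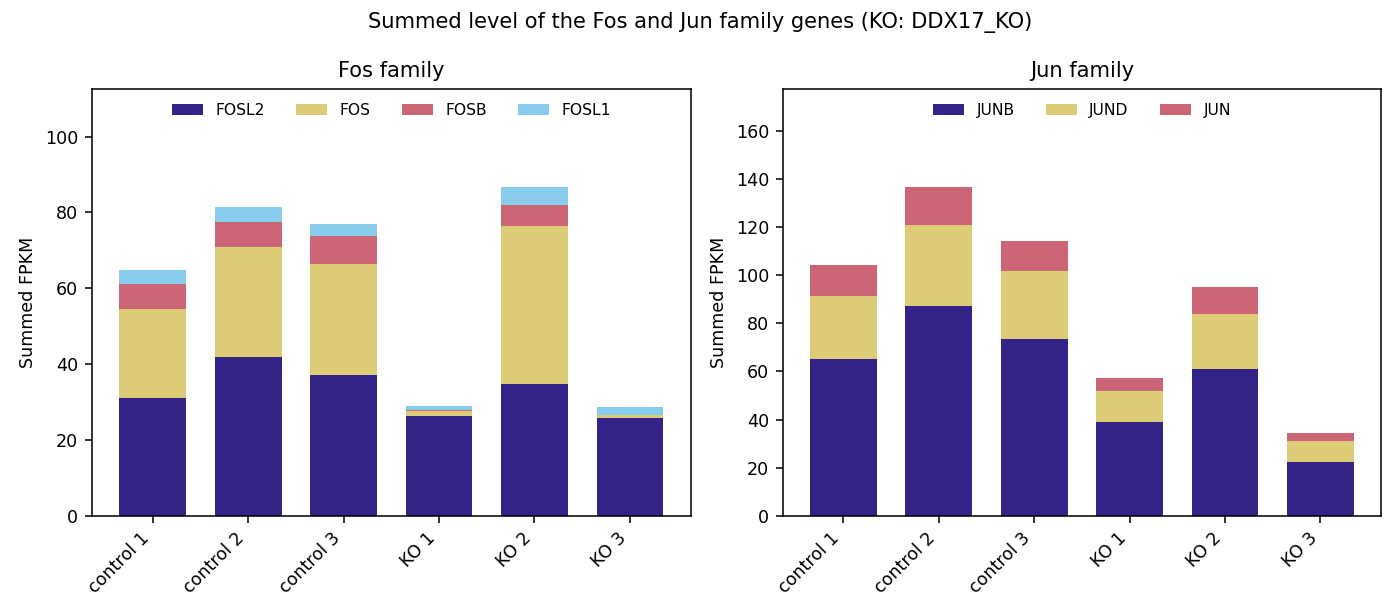
Summed FPKM of the Fos family genes (left) and the Jun family genes (right) in each library, stacked by gene, with the axis starting at 0. FOSL2 supplies 90.3% and 89.9% of the Fos sum in knockout replicates 1 and 3, and the split of the Jun sum is alike in all 6 libraries.

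Set against the 3 controls library by library, knockout replicate 1 lay below every control in 10 of the 10 genes, where 40.2% of all tested genes did. Knockout replicate 3 lay below every control in 9 of the 10, all but BATF3, where 41.5% of all tested genes did. Knockout replicate 2 lay below every control in 6, above every control in FOS and FOSL1 and within the control range in FOSL2 and ATF3, against 27.8% of tested genes below and 29.1% above. The genes below every control in replicates 1 and 2 include BATF3, at about 4 and 0 fragments. BATF3 is not among the tested genes that the shares are taken over. Replicates 1 and 3 were both below every control in 9 of the 10 genes, against 32.6% of tested genes. In 5 of those 9 (FOSB, JUN, JUNB, JUND and MAFF) replicate 2 was below every control too, where 12.6% of tested genes had all 3 libraries below. In the other 4 (FOS, FOSL1, FOSL2 and ATF3) it was not, a pattern that 3125 of the 15620 tested genes also had.

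Knockout replicate 2 had the lowest DDX17 level, 17.5% of the control mean against 51.4% and 43.8% in replicates 1 and 3, and the highest level of 9 of the 10 AP-1 genes. It was also the shallowest library and shared its deviations with control replicate 2. After a correction of every library for transcript GC content and length, FOS in knockout replicates 1, 2 and 3 lay -3.17, 0.60 and -3.72 from the control mean on the log2(FPKM + 1) scale, against -3.51, 0.60 and -4.07 before it. ATF3 lay -2.10, 0.33 and -2.13 from it, against -2.20, 0.32 and -2.21 before. The gap between replicate 2 and the other knockout libraries in FOS and ATF3 was thus nearly as large after the correction.

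In the 4 members richest in GC the correction moved knockout replicates 1 and 3 farther than in FOS, FOSB, JUN, FOSL2 and ATF3. JUND (69.7% GC) lay -0.60, -0.27 and -1.07 from the control mean after it, against -1.10, -0.34 and -1.60 before. JUNB (64.9% GC) lay -0.43, -0.25 and -1.18 from the control mean after it, against -0.93, -0.29 and -1.71 before. MAFF (61.9% GC) lay -0.57, -0.32 and -0.32, against -1.02, -0.41 and -0.79 before, so that replicates 2 and 3 stood at the same value. FOSL1 (60.0% GC) lay at -0.57, 0.26 and -0.02, against -1.03, 0.26 and -0.52 before. With the correction the log2 fold change of FOSL1 was -0.11, of MAFF -0.40, of JUNB -0.62 and of JUND -0.65, in place of -0.43, -0.74, -0.97 and -1.01, and that of FOS was -2.10 in place of -2.33.

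**Figure D3:**
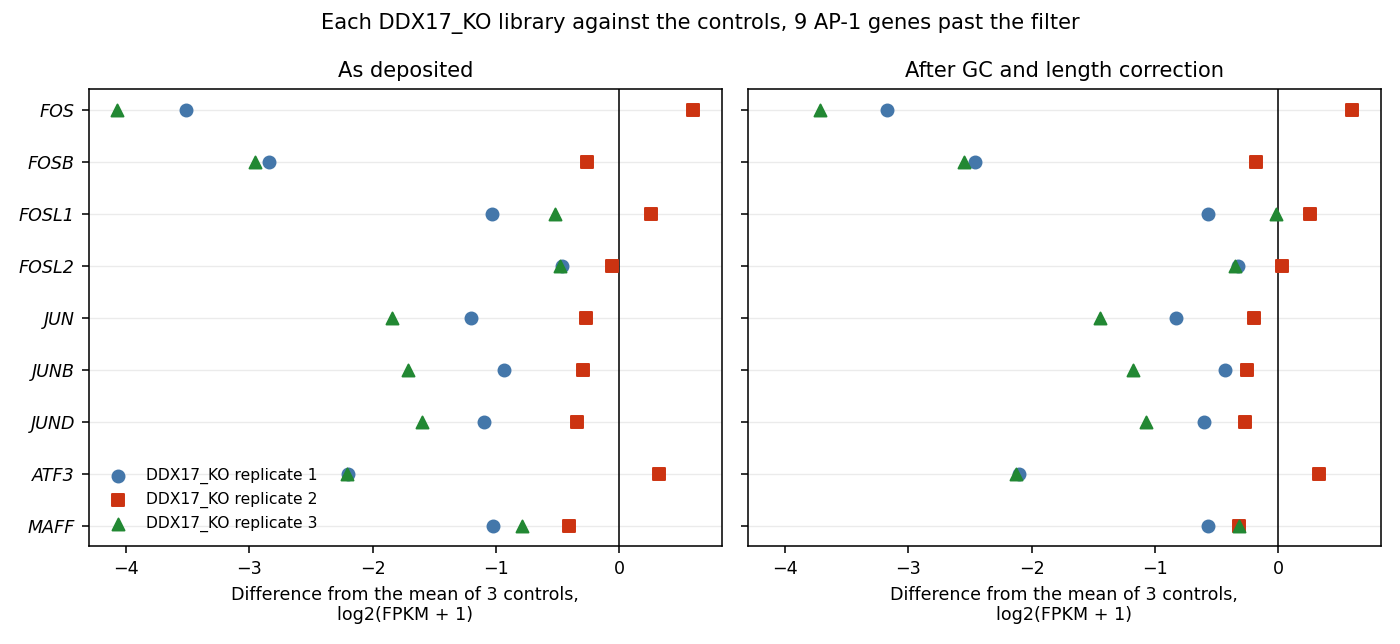
Difference of each knockout library from the mean of the 3 controls on the log2(FPKM + 1) scale for the 9 tested AP-1 genes, as deposited (left) and after correction for GC content and transcript length (right); blue circle replicate 1, red square replicate 2, green triangle replicate 3. FOS lies at -3.17 and -3.72 in replicates 1 and 3 and at 0.60 in replicate 2 after the correction. All 9 genes move toward 0 in replicates 1 and 3, and FOSL1, JUNB, JUND and MAFF move farthest.

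Without knockout replicate 2, limma called FOS, FOSB, JUN, JUND and ATF3 lower, 5 of the 9 tested members, where 1.72% of tested genes were called lower and 1.95% higher. FOS then had a log2 fold change of -3.79 from -4.31 to -3.27 (95% confidence interval) and a limma-derived adjusted p of 0.00246. Over the 20 alternatives to the fit of all 6 libraries, this fit among them, the limma adjusted p ran from 0.00246 to 0.79. FOSB had -2.89 from -3.25 to -2.53, with a limma-derived adjusted p of 0.00151 (0.00151 to 0.79 over the alternatives). ATF3 had -2.21 from -2.89 to -1.52, with a limma-derived adjusted p of 0.0284 (0.0134 to 0.807 over the alternatives). These were the members with the largest fold changes on this scale in that fit.

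JUN then stood at -1.52 on the log2 scale, with a limma-derived adjusted p of 0.0343 (0.0129 to 0.79 over the alternatives), and JUND -1.35 and 0.0353 (0.0117 to 0.79). JUNB and MAFF missed the threshold narrowly, with limma adjusted p of 0.05018 and 0.05004 and log2 fold changes of -1.32 and -0.91. FOSL1 and FOSL2 also missed it, with limma adjusted p of 0.0667 and 0.111, log2 fold changes of -0.77 and -0.47 and 95% confidence intervals from -1.26 to -0.29 and from -0.88 to -0.05. With the GC and length correction and without that library, FOS, FOSB and ATF3 were called lower and JUN and JUND were not, where 0.89% of tested genes were called lower and 0.743% higher. Array weights, which gave knockout replicate 2 the lowest weight, called 9 of the 9 lower, where 13.0% and 11.7% of tested genes were called lower and higher. Without both libraries numbered 2 the call held for 6 of the 9, MAFF being the sixth, where 3.3% of tested genes were called lower and 5.51% higher. The calls made without replicate 2 rest on 2 knockout libraries, and leaving a library out because it stands apart does not show which libraries represent the knockout.

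**Figure D4:**
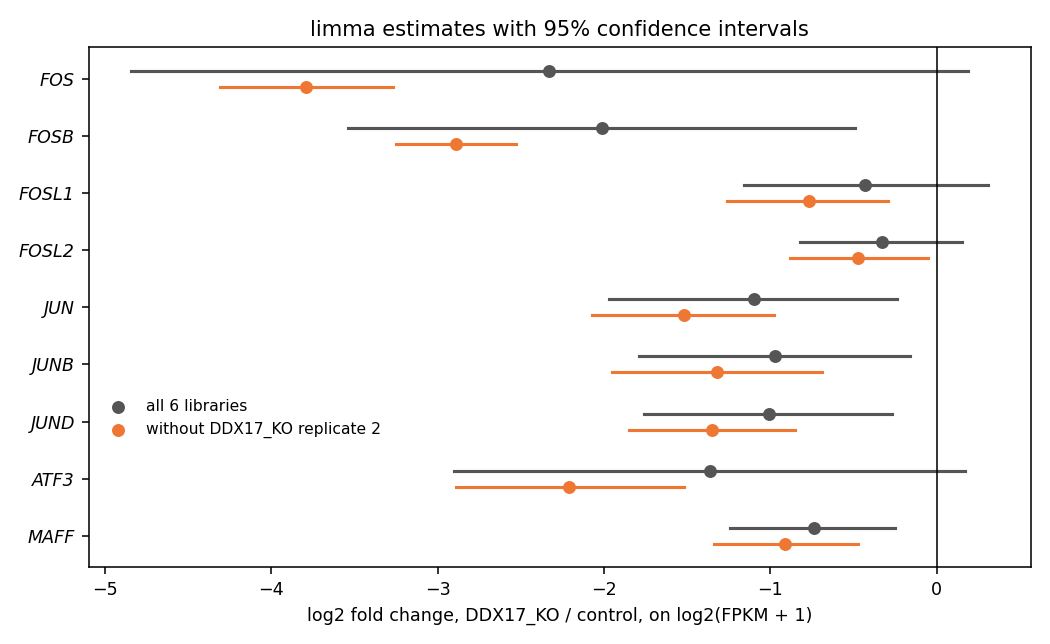
Log2 fold change of knockout against control on the log2(FPKM + 1) scale for the 9 tested AP-1 genes, as points with 95% confidence intervals from limma, with all 6 libraries (grey) and without knockout replicate 2 (orange). The FOS interval runs from -4.84 to 0.19 with all libraries and from -4.31 to -3.27 without that library.

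Around the AP-1 genes, the pathway lists gave few calls, and with all 6 libraries limma called 0 members in each of the 6 lists. Of 27 tested other bZIP genes, 16 lay below 0 and 11 above, with -0.10 as the median log2 fold change; 4 were lower at an unadjusted p under 0.05, where 7.19% of all tested genes were, and 0 were called without knockout replicate 2, where 1.72% of all were called lower and 1.95% higher. ATF4, the amino acid stress factor and the highest of them by the mean over the 6 libraries, had 99.8, 127 and 106 FPKM in controls against 72.8, 122 and 74.6 FPKM in the knockout, where replicate 2 was again the highest. ATF1, a CREB relative, had 23.8, 20.5 and 24.1 FPKM in controls against 22.2, 16.5 and 19.7 FPKM in the knockout. NFIL3, a bZIP repressor, had 20.7, 19.1 and 22.3 FPKM against 16, 18.0 and 15.1 FPKM, groups that did not overlap.

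Upstream, SRF and the ternary complex factors had 4 of 6 tested genes below 0, with a median of -0.15. At an unadjusted p under 0.05 were 0 of these genes, against 7.19% lower and 6.31% higher over all tested genes. SRF itself had 14.4, 21.3 and 16.1 FPKM in control replicates 1, 2 and 3, against 8.69, 15.6 and 9.80 FPKM in the knockout. ELK1 had 24.0, 30.6 and 24.6 FPKM against 21.7, 26.6 and 18.3 FPKM, and ELK4 had 6.63, 3.21 and 6.21 FPKM against 9.59, 4.47 and 12.9 FPKM. The groups overlapped in all 3.

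The genes of the ERK pathway from RAS to the ribosomal S6 kinases had 8 of 15 below 0, with a median of -0.03, 3 lower and 0 higher at an unadjusted p under 0.05, against 7.19% and 6.31% of all tested genes. Among its members of highest mean over the 6 libraries was NRAS, at 36.3, 14.5 and 39.6 FPKM in controls against 47.5, 24.0 and 56.6 FPKM in the knockout. ARAF, a RAF kinase gene, had 32.7, 45.3 and 31.5 FPKM against 22.8, 28.5 and 23.6 FPKM, groups that did not overlap. Kinase RNA does not measure kinase activity. Without knockout replicate 2, 1 of the 15 was called lower and 0 higher, where 1.72% and 1.95% of all tested genes were. It was RPS6KA4, the gene of the kinase MSK2, at 6.64, 8.62 and 6.90 FPKM in controls against 3.31, 5.81 and 3.79 FPKM in the knockout.

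The JNK and p38 genes had 10 of 15 below 0, with a median of -0.15. At an unadjusted p under 0.05 stood 0 of them, against 7.19% lower and 6.31% higher over all tested genes. MAPKAPK2, the p38 effector kinase gene and the highest by the mean over the 6 libraries, had 23.7, 29.1 and 24.2 FPKM in controls against 15.8, 24.3 and 18.0 FPKM in the knockout. MAP2K3 had 6.25, 9.60 and 7.96 FPKM against 4.92, 8.59 and 5.46 FPKM, and MAPKAPK3 had 6.28, 8.69 and 6.65 FPKM against 5.60, 7.92 and 4.70 FPKM. The groups overlapped in each.

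Among 14 genes that act on the turnover of AP-1 mRNA or protein, 8 lay below 0 with a median of -0.07, and 1 was lower and 2 higher at an unadjusted p under 0.05, against 7.19% and 6.31% of all tested genes. Those of highest mean over the 6 libraries were KHSRP, which encodes a decay factor for AU-rich mRNAs, at 33.3, 42.6 and 32.5 FPKM in controls against 24.0, 42.1 and 23.0 FPKM in the knockout, ELAVL1 and CNOT1. ELAVL1, the gene of the stabilizing protein HuR, had 25, 31.9 and 27.2 FPKM against 19.6, 25.6 and 19.8 FPKM. CNOT1, the deadenylase scaffold gene, had 21.2, 8.35 and 20.7 FPKM against 40.5, 17.3 and 38.4 FPKM. Without knockout replicate 2, 1 of the 14 was called lower and 1 higher, where 1.72% and 1.95% of all tested genes were. The 1 called lower was ZFP36L1, the gene of another AU-rich decay factor. ZFP36L1 had 9.61, 11.8 and 10.4 FPKM in controls against 4.70, 6.73 and 4.65 FPKM in the knockout, groups that did not overlap.

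Genes known as AP-1 targets had 19 of 23 tested members below 0, with -0.42 as the median log2 fold change beside -0.03 over all genes, and 9 were lower and 0 higher at an unadjusted p under 0.05, against 7.19% and 6.31% of all tested genes. The list held 32 genes, of which these 23 passed the filter. It was chosen with earlier results of these data known, and its difference from other genes was not tested. KRT18, a keratin gene and the highest by the mean over the 6 libraries, though not in controls, had 188, 233 and 200 FPKM in controls against 156, 170 and 239 FPKM in the knockout, with overlapping groups. FLNA, the gene of an actin cross-linker, had 199, 265 and 213 FPKM against 155, 128 and 152 FPKM, groups that did not overlap. VIM, the vimentin gene, had 81.8, 99.1 and 108 FPKM against 73.6, 110 and 80.3 FPKM, with overlapping groups.

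Without knockout replicate 2, 4 of the 23 target genes were called lower and 0 higher, against 1.72% and 1.95% of all tested genes, and 3 of them are given here, named after their values were seen. IL11, a cytokine gene, had 2.73, 3.95 and 3.11 FPKM in controls against 0.104, 0.774 and 0.0673 FPKM in the knockout. In IL11 all 3 knockout libraries lay below every control, with replicate 2 the highest of them. ITGB4, an integrin gene, had 9.48, 13 and 11.2 FPKM against 5.05, 3.73 and 3.35 FPKM, and here replicate 2 lay between the others. MT2A, a metallothionein gene, had 36.2, 41.8 and 40.4 FPKM against 21.1, 50.5 and 15.2 FPKM, with replicate 2 above every control as in FOS.

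**Figure D5:**
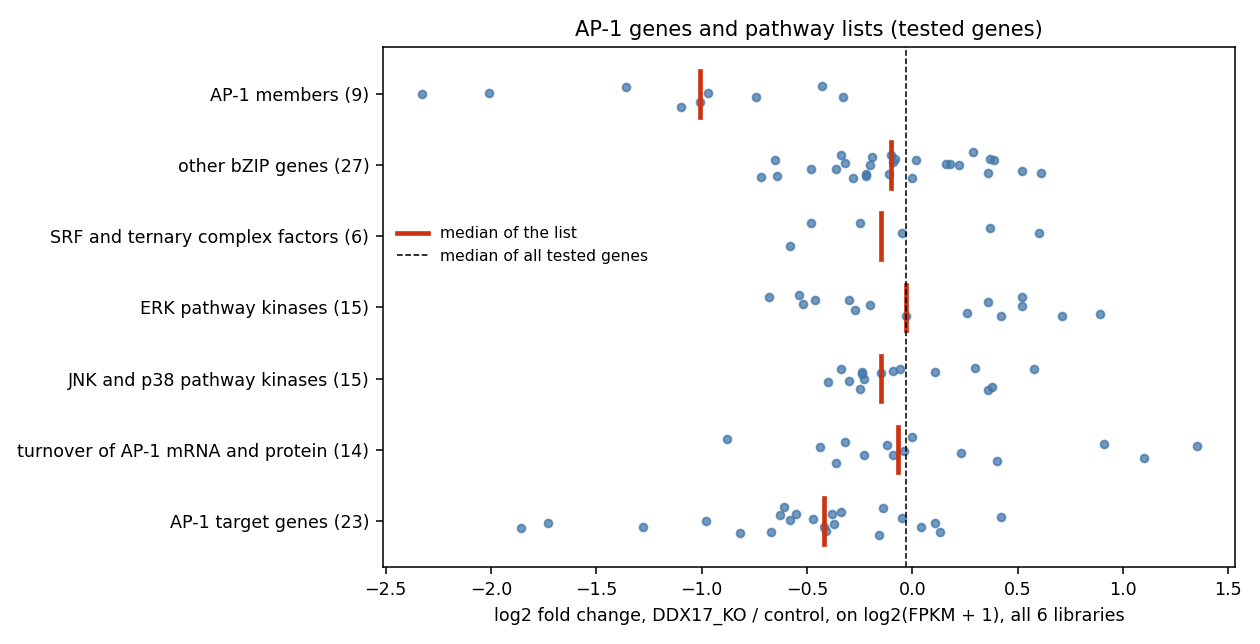
Log2 fold change of knockout against control on the log2(FPKM + 1) scale for each tested gene (points) of the AP-1 family and 6 pathway lists, with all 6 libraries; the red line marks the median of each list and the dashed line that of all tested genes, and the number of tested genes is in parentheses. The AP-1 genes have a median of -1.01 and their target genes -0.42, and the 5 other lists lie between -0.15 and -0.03. The members and lists were chosen with earlier results of these data known.

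The genes most like FOS were found by the distance between profiles of log2(FPKM + 1) over the 6 libraries, each centred on its control mean, among 5715 genes of at least 5 FPKM in controls that are not AP-1 members. The nearest was ALPI, the intestinal alkaline phosphatase gene, at a distance of 1.27, with 51.5, 71.0 and 59.6 FPKM in control replicates 1, 2 and 3, against 1.84, 167 and 2.76 FPKM in the knockout. Like FOS, it was below every control in knockout replicates 1 and 3 and above every control in replicate 2. NR4A1, an immediate early nuclear receptor gene, followed at 1.67, then CTGF at 1.82, and the early gene EGR1 and the protease gene PRSS56, each at 1.88. EGR1 had 65.5, 86.5 and 62.7 FPKM in controls against 17.7, 83.0 and 6.95 FPKM in the knockout.

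Nearest to JUN were the histone gene HIST1H4D at 0.271 and the early gene IER5L at 0.291, then WDR34 at 0.342, GLP2R at 0.442 and TGFBI at 0.475. IER5L had 11.7, 15.9 and 12.3 FPKM in controls against 5.07, 13 and 3.19 FPKM in the knockout, with replicate 2 within the control range. TGFBI, the gene of a matrix protein, had 13.1, 16.2 and 12.7 FPKM in controls against 4.82, 10.4 and 4.61 FPKM in the knockout, all 3 below every control as in JUN. The likeness is over 6 libraries of 2 groups and was not tested.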

How the data were processed

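RNA of 6 MHCC97H libraries was sequenced, 3 per group, grouped and numbered by their titles. The authors deposited 1 table of FPKM per gene and library. Per the submitters' processing notes, the build was hg38 and the tools included StringTie, HISAT2, edgeR and CASAVA 1.8, with no roles stated; how strand was treated is not given in the sources used here. Loci of 56610 of 58302 rows were the same in GENCODE release 29, which gave transcript lengths, GC content and overlapping genes. Depth was estimated from genes with 1 transcript, whose low FPKM times length lie on whole fragments (within 0.05, up to 20 fragments). Fragments per member are approximate, from merged exon length.

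limma 3.58.1 in R 4.3.3, tested on simulated data, was fitted on log2(FPKM + 1) with an intensity trend over the 15620 genes whose mean reached 0.5 FPKM, with Benjamini-Hochberg adjustment over all of them and a threshold of 0.05. Folds on this scale are too small for genes of low level. Two-sided exact permutation tests ran over 20 arrangements in Python 3.11.15 with scipy 1.17.1. The floor is 3 fragments.

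Deviations from the group means correlated across genes at 0.3, 0.546 and 0.214 for libraries of the same number, each over 0.1, although control replicate 1 was closer to DDX17_KO replicate 3, at 0.329. The pairing comes from these data alone.

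The members and lists were chosen with earlier results of these data known. The genes named are the 10 members, DDX17, the 5 genes with profiles nearest FOS and JUN, and from each pathway list those called, up to 3 per direction, or else the 3 of highest mean over the 6 libraries; others are said to be named after their values were seen, as are RPS6KA4 and ZFP36L1. Some genes that this rule names are not reported here. Alternatives were the replicate number as a block, smaller pseudocounts (0.1 and 0.01), scaling by median of ratios or quantiles, a filter at 2 FPKM or none, robust or untrended limma, array weights, a spline correction for transcript GC content and length (4 degrees of freedom each) alone or with the block, each library left out, and both libraries numbered 2 left out. The correction without DDX17_KO replicate 2 was added after seeing the data.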

Additional observations from a re-analysis of the deposited data

How the results depend on the processing

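The 9 tested AP-1 genes kept a log2 fold change below 0 under all alternatives run, and the calls depended on DDX17_KO replicate 2. Members called lower by limma numbered 0 with all libraries, 0 to 5 with each library left out, 6 without both libraries numbered 2, 9 with array weights and 3 with the GC and length correction without DDX17_KO replicate 2. Array weights gave DDX17_KO replicate 2 a weight of 0.152, the lowest of the 6, and control replicate 3 the highest, 6.91. Over all genes the calls numbered 6 with all libraries, 3 without a filter, 11 with the GC and length correction, 3 to 572 with each library left out, 255 with that correction without DDX17_KO replicate 2, 1376 without both libraries numbered 2 and 3861 with array weights. With the replicate number as a block, 4 genes and 0 members were called, and the block changed no call of a member. Of 179 estimates for single members under alternatives, 156 stayed on the same side of the threshold and 23 passed it. BATF3, with a log2 difference of -0.25, turned to 0.03 without both libraries numbered 2 and went to -1.06 and -2.18 with pseudocounts of 0.1 and 0.01; at its depth no direction can be read. Scaling moved the median of all genes by no more than 0.04 from 0. The depth of DDX17_KO limits FOSB, FOS and ATF3, whose low values in replicates 1 and 3 rest on about 1 to 51 fragments. It also limits FOSL1, at about 25, 45 and 34 fragments in DDX17_KO replicates 1, 2 and 3, and MAFF, at about 40, 47 and 45.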
